A study of Homo sapiens with 2 samples.

Results

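Exon records of 4000 bases or more were examined in the deposited exon tables of A673 cells, an Ewing sarcoma line in which the transcription factor RUNX3 was targeted with a short hairpin RNA. Each record is 1 annotated exon with its start, stop and read count. After 1461 records of the Y chromosome were left out (8 of them long), 229009 records remained, and 1941 of them (0.848%) reached 4000 bases, in 1857 genes. Their median length was 5097 bases, with quartiles at 4444 and 6339, a least length of 4000 and a greatest of 59461. Records of 1 gene can overlap, and the 1941 records covered 1887 separate loci. Both libraries together gave 50 or more reads to 1399 long records, 1 to 49 reads to 429 and no read to 113. Folds are reported only for the 1399.

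The study compared a RUNX3 hairpin (sh813) with a non-target hairpin (shNT), both delivered by lentivirus made in HEK 293T cells, a human embryonic kidney line. Virus was collected after 72 hours and applied to A673 cells in DMEM with serum and antibiotics, in the presence of 6 µg/mL polybrene. Transduced cells were then selected with 0.4 µg/mL puromycin for 6 days and kept as pools, so both groups carry an integrated lentivirus and had the drug. Each group has 1 library of poly(A)-selected RNA, so there is no replicate, no test and no estimate of the spread between cultures. The titles and the hairpin characteristic of the 2 libraries contradict each other, and groups were taken from the titles, so the libraries are called by title, as the 813 library and the NT library. Taking the characteristic instead would turn every direction round. RUNX3 itself had 387 read pairs in the 813 library and 1391 in the NT library, a log2 fold of -1.92.

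Gene counts summed to 23342660 pairs in the 813 library and 24326135 in the NT library. The exon tables summed to 63564595 and 66640470 reads, which count single reads in records that can overlap. The Ewing sarcoma marker CD99 stood at 4026 and 3808 CPM (read pairs scaled to library size; 813 library first, here and below where 2 values are paired), NKX2-2 at 102 and 275 CPM, and NR0B1 at 123 and 266 CPM. The other Ewing sarcoma markers looked at were STEAP1 at 15.6 and 27.8 CPM, PRKCB at 282 and 254 CPM, and LIPI at 21.6 and 18.5 CPM. Of the leukocyte genes, PTPRC and CD3E had at most 1 pair in either library, CD14 had 30 and 14 and LYZ 24 and 30. Of the endothelial genes, VWF and CDH5 had at most 8 pairs and PECAM1 had 28 and 18. Of the fibroblast genes, PDGFRA had 3 and 4 pairs, LUM 33 and 23, and DCN 124 and 146, or 5.07 and 6.29 CPM.

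Most exons of human genes are short, and the very long ones are usually the last exon, which ends the coding sequence and carries the 3′ untranslated region up to the poly(A) site. That region holds binding sites for microRNAs and for RNA-binding proteins that set the stability, translation and location of the messenger RNA. A gene with several poly(A) signals can end its messages early or late, so the far part of a long last exon may be present in only some of its transcripts. A smaller class of long exons is coding, as in genes of giant proteins, protocadherins and zinc fingers, and a further class belongs to unspliced noncoding RNAs.

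The annotation placed most of the measured records at the 3′ end. Strand came from GENCODE 29 by gene name, and 1196 of the 1399 lay at the 3′ end of their gene. A further 85 were the only record of their gene, 79 were internal, 17 lay at the 5′ end and 22 of genes with several records had no matched strand. Matched exons of similar length were found for 1154 records (82.5%). Of these, 98 were mostly coding and 975 held some coding sequence but more that was untranslated. Another 57 were untranslated in their matched transcript and 24 belonged to noncoding genes or pseudogenes. Coding content was read from that 1 transcript only. The poly(A) signal was searched on the sense strand, as AATAAA or, where that was missing, ATTAAA, in the last 50 bases of 1031 matched last exons. AATAAA was present in 764 (74.1%) and ATTAAA alone in 155, against 66.9% and 15.3% of 7164 last exons of 500 to under 4000 bases. The whole long exon held a median of 4 AATAAA matches, against 1 in the shorter exons, which is 0.840 and 1.03 matches per kb. A match is a run of letters in the annotated exon and does not show where transcripts end in these cells.

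The annotated ends of 7 genes whose long last exon departed from the rest of the gene are shown, to let the exons that stood above the rest be read beside those that stood below it. Each line is 30 bases of the sense strand from the GRCh38 genome, 5′ to 3′, with the last match to the poly(A) signal in capitals. SNTB2 (chr16:69309019-69309048), ZFP90 (chr16:68567097-68567126), ACVR2B (chr3:38493113-38493142) and CBX5 (chr12:54230949-54230978) stood above, and ETNK1 (chr12:22690631-22690660), EXOC5 (chr14:57202485-57202514) and SALL2 (chr14:21521083-21521112) stood below.
SNTB2: ctttatactgtaAATAAAaaagttgcttta
ZFP90: ttgtattctttcAATAAAtagccttctgag
ACVR2B: gtatatgaaaataaaataatAATAAAacaa
CBX5: tgtattggttctAATAAAtggttgcttttc
ETNK1: attcgttgtaacAATAAAgttgagttctaa
EXOC5: aaatactgtacaAATAAAatttttcccttt
SALL2: tttccctctatcATTAAAggtgttttaacc
The SALL2 line holds the ATTAAA form and the others the common signal. The ACVR2B line holds a further match to the common signal, in small letters ahead of the marked one. The departures of these genes are given further on.

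Long exons held a larger share of the reads in the 813 library. They make up 15.2% of all record bases, but held 2.95% of exon reads in the 813 library (95% exact interval 2.95 to 2.96) and 2.42% in the NT library (2.41 to 2.42). These and all other intervals cover counting error only. Read density was lower in the long record than in the rest of its gene for 981 of 1135 records in the 813 library and for 1003 in the NT library. The median log2 ratio of the densities was -0.97 in the 813 library and -1.14 in the NT library, so the long record was the thinner stretch in both and more so in the NT library. Shorter 3′ end records, of 500 to under 4000 bases, were thinner than their rest too. Their medians were -0.50 and -0.53, against -1.01 and -1.21 for long 3′ end records.

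The level of long exons was more often higher than lower in the 813 library. A log2 fold is the level in the 813 library over that in the NT library after scaling by TMM, which sets the libraries level over most genes. The call of higher or lower asks for at least a 2-fold difference whose 95% interval lies entirely past 1.5-fold. By that rule 252 of the 1399 long records were higher, which is 18%, against a background of 3.72% of all 94928 records with as many reads. Lower records numbered 29, which is 2.07%, against 2.49% of all. Over records under 4000 bases alone, 3.51% were higher and 2.5% lower. In bulk RNA a change per cell and a change in the share of cells cannot be told apart. The higher records lay in 239 genes and the lower in 28. The median log2 fold was 0.43 over long records and -0.08 over all records, and the middle of the long records ran from -0.05 to 0.92. Signs were positive for 1021 long records and negative for 378, or 73.0% positive, against 43.6% of all records. With plain library totals in place of TMM every log2 fold moved up by 0.14, and 79.3% of long records and 54.5% of all were then positive. The gap of 0.51 between the long and the overall median is the same under either scaling by construction, because a scaling moves every log2 fold equally. At the median the other records of the same genes were higher too, by less. For the 1135 long records whose rest of the gene could be measured, the median was 0.43 for the record and 0.25 for the rest. Over all 93126 such records these medians were -0.08 and -0.07.

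The pattern was graded with length rather than set off at 4000 bases. The median log2 fold was -0.12 for records under 100 bases, -0.07 from 500 to under 1000, 0.02 from there to under 2000, 0.16 to under 3000 and 0.21 to under 4000. Among long records it was 0.38 from 4000 to under 5000, 0.43 to under 6000, 0.45 to under 8000 and 0.55 at 8000 or more. The share called higher went from 16.5% in the first of these long classes through 17.9% and 19.9% to 21.2% in the last. At the same place in the gene the shorter records differed less: 3′ end records of 500 to under 4000 bases had a median of 0.03, with 7.48% called higher and 3.26% lower, against 0.43, 18.6% and 2.01% for long 3′ end records. The 79 internal long records had a median of 0.33 and the 85 that are the only record of their gene 0.48. Around the length limit, the records just inside were CPEB2 (4001 bases, 255 and 124 reads, 813 first), STAM2 (4002 bases, 45 and 38 reads) and SYT11 (4002 bases, 1717 and 727 reads). Just outside at 3998 bases were BMF (6508 and 7165 reads), DISP2 (59 and 66) and NIPAL3 (541 and 571).

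**Figure D1:**
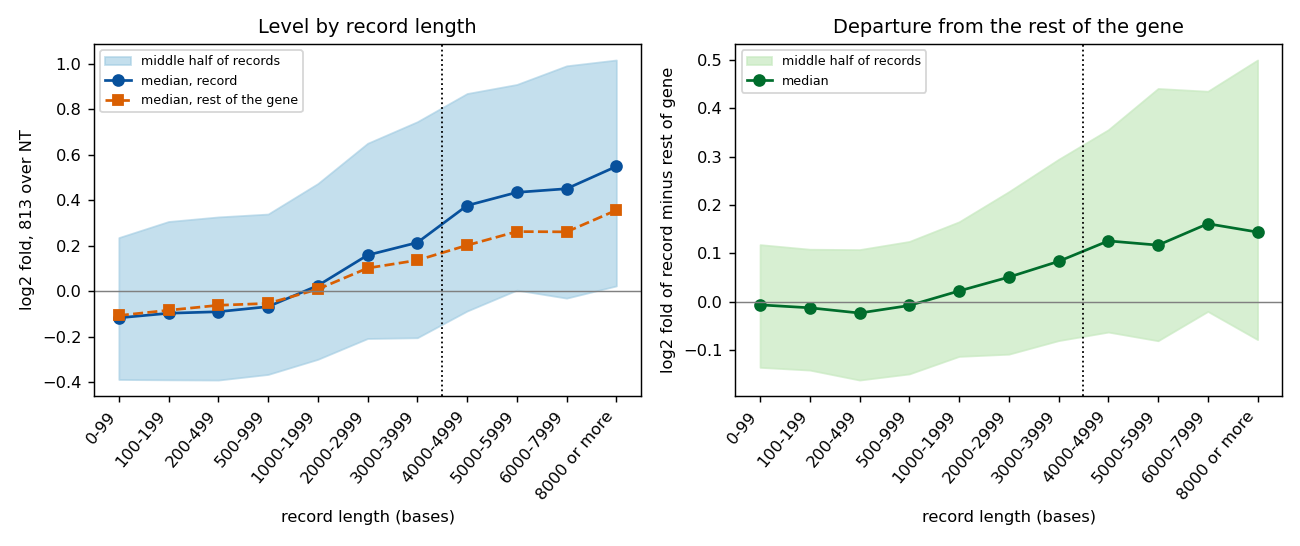
Median log2 fold of exon records by record length (left, blue) with the median of the rest of their genes (orange), and the median log2 departure of the record from the rest of its gene (right), each with the middle quartiles shaded; the dotted line marks 4000 bases. The record median goes from -0.12 under 100 bases to 0.55 at 8000 or more, and the median of the rest of the gene lies below it from 1000 bases up and slightly above it in the shorter classes.

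The 12 clearest higher records include the genes of a filament protein, a small GTPase, a calcium channel and several receptors. UBE2QL1, a relative of ubiquitin-conjugating enzymes, had 1013 reads in the 813 library and 94 in the NT library in its 5504-base last exon (chr5:6491331-6496834, hg19), a log2 fold of 3.34 (2.92 to 3.82). SYNM, the intermediate filament protein synemin, had 1026 and 132 reads in a mostly coding exon of 6229 bases, a log2 fold of 2.87 (2.51 to 3.28). NFAM1, an immune receptor with an activation motif, had 1385 and 181 reads in 4813 bases, a log2 fold of 2.85 (2.54 to 3.19). In these 3 genes the other records were higher too, with log2 folds of 2.77, 2.80 and 2.66 for the rest of the gene. For SYNM the rest had 987 and 134 reads, of which 888 and 116 lay in records that overlap the long one. Its agreement is therefore largely not that of separate exons.

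RAB3B, a small GTPase of regulated secretion, was the most abundant of the 12 clearest higher records, with 7504 and 1530 reads in 12159 bases (chr1:52373628-52385786), or 12.6 and 2.71 CPM per kb. Its log2 fold was 2.22 (2.11 to 2.33) and that of the rest of the gene 1.23 (1.04 to 1.43). The record therefore stood 0.99 on the log2 scale above a gene that was itself higher. LONRF2, a RING finger protein, showed the same with 832 and 140 reads in 11202 bases, a log2 fold of 2.49 (2.13 to 2.88) against 1.24 (0.87 to 1.63) for its rest. TACC1, a coiled-coil protein of centrosomes, had 741 and 151 reads, a log2 fold of 2.21 (1.86 to 2.60) against 0.96 (0.69 to 1.25). ATXN1, the polyglutamine protein of a spinocerebellar ataxia, had 258 and 31 reads, a log2 fold of 2.94 (2.22 to 3.85) against 1.48 (0.97 to 2.04). All 4 of these last exons were farther from no difference than their genes, although measured against only the next exon upstream the intervals of ATXN1 and LONRF2 overlapped.

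Several of the clearest higher records were near the floor in the NT library. LRRC55, an accessory subunit of large-conductance potassium channels, had 80 and 2 reads and a log2 fold of 4.68 (2.69 to 10.59). CACNA1C, the pore-forming subunit of an L-type calcium channel, had 67 and 2 reads and a log2 fold of 4.43 (2.41 to 10.34). The CACNA1C record overlaps a record of another gene, and without a stated strand setting their reads cannot be told apart. The chemerin receptor CMKLR1 had 274 and 36 reads (log2 fold 2.82, 2.14 to 3.65), the protocadherin PCDH12 had 135 and 16 (2.92, 1.94 to 4.27), and the Ras exchange factor RASGRF2 had 112 and 14 (2.84, 1.79 to 4.30). For RASGRF2 the rest of the gene, at 630 and 82 reads, gave an almost equal 2.85.

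Lower records were fewer, and most followed their gene. PAX7, a paired-box transcription factor of muscle and neural precursors, had 1158 reads in the 813 library and 5794 in the NT library in its 4053-base last exon (chr1:19071308-19075360), or 5.84 and 30.8 CPM per kb, a log2 fold of -2.40 (-2.53 to -2.27). NOS1, the neuronal nitric oxide synthase, had 3726 and 10729 reads in 7183 bases (chr12:117645947-117653129), a log2 fold of -1.60 (-1.68 to -1.53). MAPT, the microtubule-associated protein tau, had 396 and 1250 reads, a log2 fold of -1.73 (-1.97 to -1.50). The rest of the gene stood at -2.51 for PAX7, -1.69 for NOS1 and -1.89 for MAPT, within 0.16 of the long record in each.

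Others among the 12 clearest lower records were NACAD (261 and 822 reads in an internal coding exon, log2 fold -1.73), TMEM151B (53 and 210, -2.04), the G protein subunit GNG4 (361 and 906, -1.40) and the transcriptional coregulator MN1 (423 and 974 in a mostly coding first exon, -1.28). RASSF2, a Ras-association protein, is listed with 2 overlapping records that differ by 1 base and hold the same 34 and 141 reads (-2.10). The rest of the lower set were C10orf105, whose record overlaps another gene (266 and 836 reads), C20orf112 (32 and 115) and PLCXD3 (10 and 54). Of the 19 lower records whose rest could be measured, the rest was also called lower in 14. Of the 223 such higher records, the rest was also called higher in 95. The 14 include both RASSF2 records, and the rest of each, 44 and 219 reads, includes the 34 and 141 reads of the other.

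**Figure D2:**
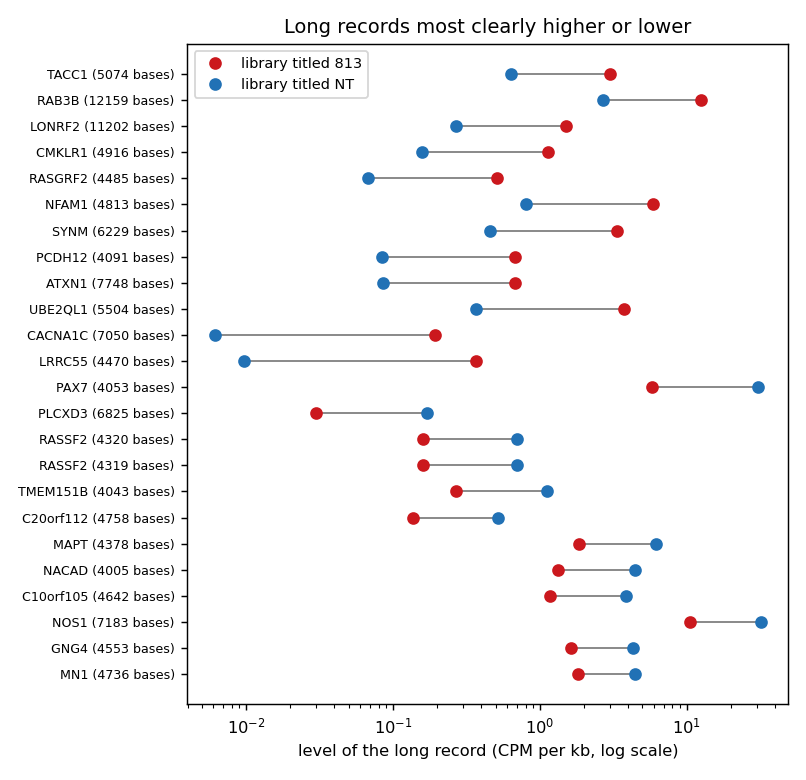
Level of the 12 clearest higher and 12 clearest lower long records in each library, in CPM per kb on a log axis (red, 813 library; blue, NT library). RAB3B and PAX7 lie at the abundant end, with 12.6 against 2.71 and 5.84 against 30.8 CPM per kb, and CACNA1C and LRRC55 lie near the floor in the NT library.

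Beyond the gene's own level, long exons tended to stand above the rest of their gene. Departure is the log2 fold of the record minus the log2 fold of the summed other records of the same gene, and library scaling cancels in it. It was measured for 1135 records with 50 or more reads in both. Of the 1399 long records, 148 overlap a record of their own gene, and the overlapping records count in the rest. A record is called above or below at 1.5-fold or more with the 2 intervals not overlapping. By that rule 77 records were above the rest of their gene, which is 6.78%, against a background of 0.469% of all 93126 records. Below were 10, which is 0.881%, against 0.423%. Over records under 4000 bases alone, 0.391% were above and 0.417% below. Counts of all records were divided by 2 for the intervals, and the part of this in the background shares was not tested. The median departure was 0.13 over long records and -0.01 over all, and it was positive for 67.0% of long records and for 48.2% of all. Shorter 3′ end records, of 500 to under 4000 bases, were above in 1.53% and below in 0.546%.

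The share above the rest also went up with length, from 4.36% at 4000 to under 5000 bases through 7.55% and 8.30% to 13.2% at 8000 or more. Of the 77 records above, 48 were also called higher in level and 29 were not. Their median log2 fold was 1.17 and that of the rest of their genes 0.13, with the rest positive in 45 and negative in 32. A gap between these medians follows from the call, which selects records above their rest. The call uses the rest as well, so the median of the rest is subject to the same selection. Over all 1135 long records with a measured rest it was 0.25. Of the 77, 69 lay at the 3′ end and 67 had 200 or more reads in both record and rest.

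**Figure D3:**
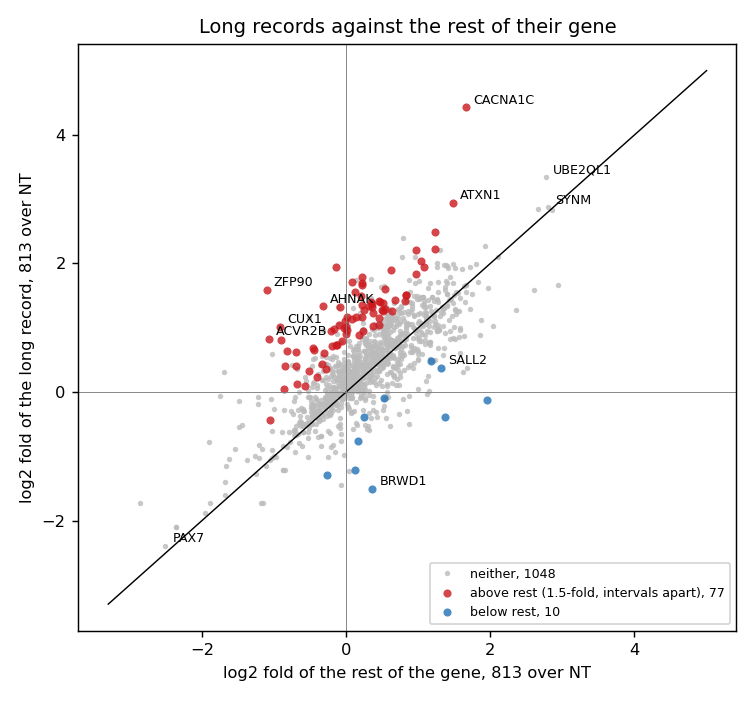
Log2 fold of each of the 1135 long records (vertical) against the log2 fold of the rest of its gene (horizontal), with the line of equality. The 77 records called above the rest (red) lie over the line around a median of 1.17, and the 10 called below (blue) lie under it.

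The most separated record was in CUX1, a homeodomain transcription factor. Its 9822-base record (chr7:101891692-101901513) had 1231 reads in the 813 library and 577 in the NT library, a log2 fold of 1.02 (0.81 to 1.22). The rest of the gene had 3367 and 6020 reads, a log2 fold of -0.91 with an upper bound of -0.83, so the departure was 1.93. The CUX1 locus is known to make a Golgi protein as well, from other 3′ exons, and the rest sums the exons of both products. The long record lies inside the span of the gene, with further records on its 3′ side.

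AHNAK, a giant scaffold protein beneath the plasma membrane, carries one of the longest coding exons of the genome, 18173 bases in these tables (chr11:62283374-62301546). It had 12928 and 4868 reads, or 14.5 and 5.77 CPM per kb, a log2 fold of 1.33 (1.27 to 1.40). The remaining records of AHNAK had only 290 and 345 reads, a log2 fold of -0.33 (-0.65 to 0.00), and the departure was 1.66. Nearly all AHNAK reads fell in the long exon, and the few outside it did not share its direction.

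Signalling and membrane genes were among the others above. SNTB2, a syntrophin that links membrane proteins to the dystrophin complex, had 1905 and 525 reads in 8221 bases (log2 fold 1.78, 1.59 to 1.99) against 1011 and 825 in its rest (0.22, 0.03 to 0.41). The Wnt receptor FZD4 had 6632 and 2456 reads in 6796 bases (1.36, 1.26 to 1.45) against 516 and 420 in its rest (0.22, -0.05 to 0.49). ACVR2B, a receptor for activins, had 124 and 66 reads in 10005 bases (0.82, 0.20 to 1.49) against 131 and 262 in its rest (-1.07, -1.53 to -0.64). ABI2, an Abl-binding regulator of actin, had 1354 and 668 reads (0.94, 0.75 to 1.14) against 1959 and 2151 (-0.21, -0.34 to -0.08). In SNTB2 and FZD4 the rest was close to no difference, while in ACVR2B and ABI2 it lay on the other side of it.

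Chromatin and zinc finger genes followed. CBX5, the heterochromatin protein HP1 alpha, had 6324 and 2265 reads in 10959 bases (1.41, lower bound 1.31) against 1647 and 1226 (0.35, 0.20 to 0.50), in a record that overlaps another gene. WHSC1, a histone H3 lysine methyltransferase, had 1073 and 658 reads in a 6480-base internal record (0.63, 0.43 to 0.83) against 17614 and 27146 (-0.70, -0.74 to -0.66). ZFP90, a KRAB zinc finger protein, had 221 and 69 reads (1.59, 1.04 to 2.20) against 24 and 50 (-1.10, -2.26 to -0.09), a departure of 2.69. For WHSC1 the long record was a small part of a well-covered gene, and for ZFP90 the rest was small. The remaining 3 of the 12 most separated above were SNX1, a sorting nexin (departure 1.30), CYP20A1, a cytochrome P450 (1.48), and KLHDC5, a kelch protein (1.43).

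Opposite signs with both intervals excluding no difference were seen in 23 of 1135 long records that were positive over a negative rest (2.03%, against a background of 0.12% of all records), and in 1 record of the opposite kind, BRWD1 (0.0881%, against 0.0784%). With plain library totals the numbers were 22 and 1, with 15 of the 23 kept, and with median-of-ratios size factors 25 and 0, with 22 kept. CUX1, ACVR2B and WHSC1 are among the 23 under each scaling, and ABI2 and ZFP90 under TMM and size factors only, since with plain totals the interval of their rest reached 0.05 above no difference. Others, chosen after their values were seen, were the fatty acid sensor PPARA (161 and 87 reads, log2 fold 0.80, rest -0.90) and the ubiquitin ligase subunit FBXL20 (334 and 240, 0.40, rest -0.85).

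**Figure D4:**
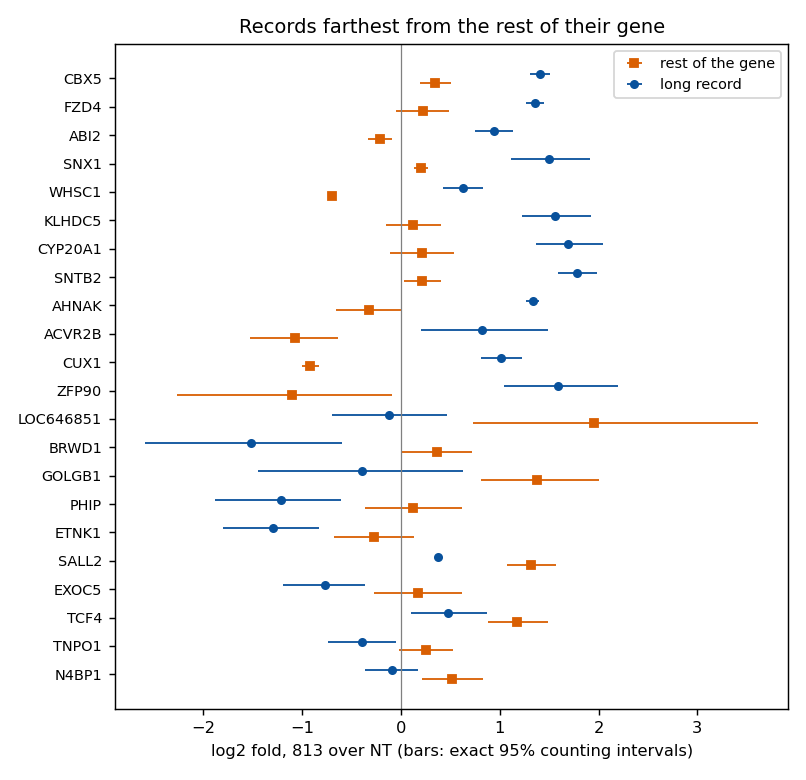
Log2 fold with exact 95% counting interval of the long record (blue) and of the rest of its gene (orange) for the 12 records most clearly above and the 10 below. CUX1 shows 1.02 against -0.91 and BRWD1 shows -1.51 against 0.36.

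The 10 records below the rest of their gene included SALL2, the most separated of them. SALL2, a zinc finger transcription factor, had 27076 and 19733 reads in its mostly coding last exon of 4557 bases (0.38, 0.34 to 0.42), against 983 and 373 in its rest (1.32, 1.08 to 1.57), a departure of -0.94. BRWD1, a bromodomain protein, had 26 and 72 reads in 11938 bases (-1.51, -2.58 to -0.60) against 312 and 230 (0.36, 0.01 to 0.72). PHIP, a related bromodomain protein, had 64 and 142 (-1.21, -1.88 to -0.60) against 153 and 133 (0.13, -0.37 to 0.62), and ETNK1, an ethanolamine kinase, had 105 and 246 (-1.30, -1.80 to -0.83) against 197 and 225 (-0.27, -0.67 to 0.14). SALL2 differed from the other 3 in that its long exon was positive and its rest more so.

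The other 6 below were EXOC5, an exocyst subunit (163 and 264 reads, departure -0.94), TNPO1, a nuclear import receptor (253 and 315, -0.64), TCF4, a basic helix-loop-helix factor (286 and 194, -0.70), N4BP1 (460 and 465, -0.61), the Golgi protein GOLGB1 (32 and 40 in a coding exon, -1.77) and the uncharacterised LOC646851 (103 and 106, -2.07). Level calls of BRWD1 and PHIP were lost with plain library totals, at log2 folds of -1.38 and -1.08.

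Base composition went with both measures. GC content was taken from the matched exon, and its median was 42.0% over long records. Median log2 folds were 0.28 under 36% GC, 0.62 at 36 to 40, 0.87 at 40 to 44, 0.41 at 44 to 50 and -0.01 at 50 or more. The shares called higher were 7.54%, 24.8%, 34.5%, 17.3% and 7.59% in the same order. Departures followed, with medians of -0.00, 0.24, 0.34, 0.13 and 0.07. Of the 69 records above the rest that had a GC value, 64 lay between 36 and 50%, as did 718 of all 1154 long records with one.

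Shorter 3′ end records had their highest median log2 folds at 36 to 40% GC, and long ones at 40 to 44%. At 36 to 40% GC the median log2 fold of 3′ end records was 0.38 at 500 to under 2000 bases, 0.67 at 2000 to under 4000 and 0.63 at 4000 or more, so the longest class was not the highest there. At 40 to 44% GC the median log2 fold of 3′ end records was 0.17 at 500 to under 2000 bases, 0.62 at 2000 to under 4000 and 0.85 at 4000 or more, and the median departures were 0.06, 0.14 and 0.33. At 50% GC or more the medians were -0.20, -0.14 and -0.05. Depth also went with the result, since the median log2 fold of long records was 0.36 at 50 to under 200 summed reads, 0.65 at 200 to under 1000 and 0.29 at 1000 or more. Departure was 0.03, 0.20 and 0.12 in these classes. The part of GC content and depth in the differences was not tested, and the RNA quality of the 2 libraries is not given in the sources used here.

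**Figure D5:**
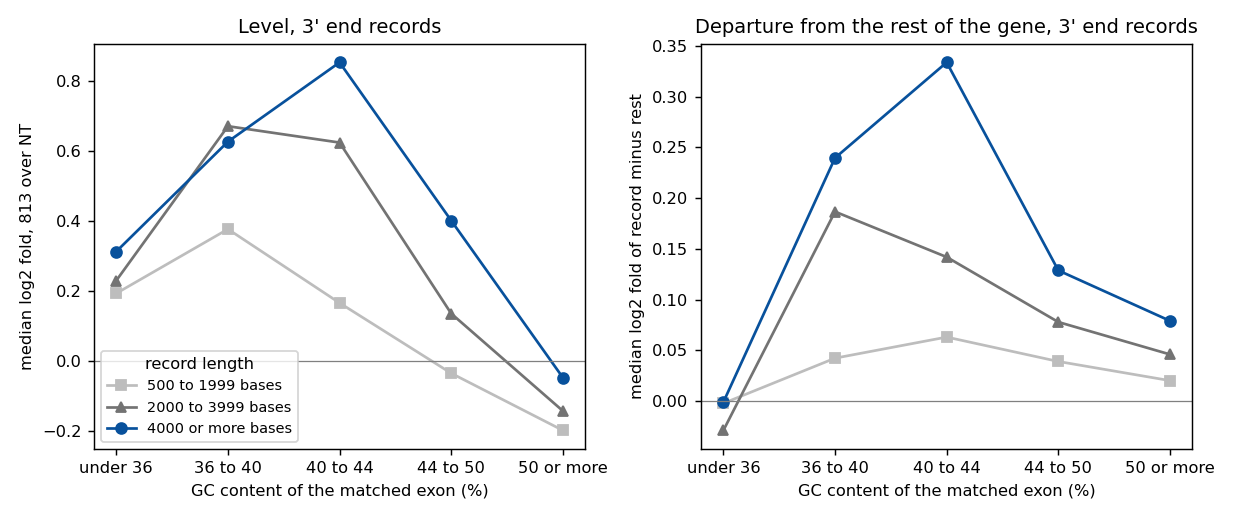
Median log2 fold (left) and median departure from the rest of the gene (right) of 3′ end records by GC content of the matched exon, in 3 length classes. The long records (blue) peak at 40 to 44% GC, at 0.85 and 0.33, and the 3 length classes lie closer together at the ends of the GC range.

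By coding content, mostly coding long records had a median log2 fold of 0.25 and a median departure of 0.01, with 1 of 73 above the rest and 2 below. Records with some coding sequence had 0.44 and 0.14, with 65 of 830 above (7.83%) and 3 below. Records untranslated in their matched transcript had 0.43 and 0.15, with 3 of 53 above and 1 below. Such an exon may still be coding in another transcript of its gene. AHNAK was the 1 mostly coding record above.

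Genes known for a long coding exon were described as a list. Of their 54 measured records 10 were higher (18.5%, near the 18% of all long records) and none lower, with a median log2 fold of 0.53. Above the rest of the gene was 1 of 47 (2.13%), against 6.78% of all long records. NES, the intermediate filament protein nestin of neural progenitors, had 1973 and 489 reads in 4442 bases (1.93, 1.73 to 2.14) with its rest at 1.41. The giant cadherins FAT1 (1175 and 416 reads, log2 fold 1.42) and FAT4 (239 and 58, 1.95) were higher with their rest at 1.07 and 1.26. Protocadherins, adhesion proteins with most of the coding sequence in 1 exon, had 4 of 5 measured records higher, and 3 of those belong to PCDH7. The PCDH7 records hold 7804 and 3459, 7774 and 3448, and 306 and 116 reads, and the first overlaps the second and shares its reads.

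Other gene groups were described by counts beside the long records as a whole, of which 18% were higher, 2.07% lower and 6.78% above the rest of the gene. Transcription and chromatin factors had 16 of 55 measured records higher (29.1%), 2 lower, and 5 of 47 above the rest. Among them the single-exon gene SOX4, a developmental transcription factor, had 1490 and 435 reads (1.70, 1.48 to 1.93), the histone demethylase KDM5A had 410 and 119 (1.70, 1.29 to 2.15), and the forkhead factor FOXN2 was lower at 35 and 94 (-1.48, -2.38 to -0.68), a call lost with plain library totals at -1.34. Kinases, phosphatases and signalling proteins had 8 of 40 higher, none lower and 0 of 37 above. SPRY4, a feedback inhibitor of receptor tyrosine kinase signalling, had 2184 and 549 reads (1.91, 1.72 to 2.11), and the apoptosis inhibitor BCL2 had 337 and 117 (1.44, 1.01 to 1.91) with its rest at 1.46. Beside 18% higher and 6.78% above over all long records, the counts of the signalling group are too small to set it apart.

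Transporters, channels and trafficking genes had 8 of 31 higher and 4 of 29 above. SORT1, the sorting receptor sortilin, had 1862 and 751 reads (1.23, 1.06 to 1.41) with its rest at 0.37. Receptors, ligands and adhesion proteins had 5 of 23 higher, 1 lower and 2 of 22 above. The lower one was the Wnt receptor FZD5, at 29 and 82 reads (-1.54, -2.55 to -0.68), again lost with plain library totals at -1.41, while its relative FZD4 was higher. CD47, the ligand that restrains phagocytosis, had 388 and 151 reads (1.28, 0.90 to 1.69) with its rest at 0.74.

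Zinc finger genes named ZNF or ZFP formed the largest group, with 16 of 89 measured records higher, 1 lower and 5 of 56 above. Their share called higher, 18%, equals that of long records overall. ZNF264 had 815 and 242 reads in 11493 bases (1.67, 1.38 to 1.98) with its rest at 0.21, and ZNF518A was the lower one at 22 and 64 reads (-1.57, -2.75 to -0.59), lost with plain library totals at -1.44. Genes still carrying KIAA or FAM names had 12 of 43 higher and none lower, among them KIAA0754, a single-record gene with 1470 and 370 reads (1.91, 1.68 to 2.16). The small RNA machinery and RNA-binding regulators had 2 of 26 higher, TNRC6B, a partner of Argonaute proteins (334 and 153 reads, 1.05, 0.65 to 1.46), and SAMD4A, a translational repressor (204 and 86, 1.16, 0.64 to 1.72).

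Genes whose products act on 3′ ends were examined at gene level too. These cleave and polyadenylate messages, bind untranslated regions or degrade transcripts. Of 65 measured genes 4 were higher and none lower, against 8.13% and 3.48% of all 12254 measured genes. The 4 were DCP1A, a decapping cofactor (9.16 and 3.53 CPM, log2 fold 1.37), IGF2BP3, an mRNA-binding oncofetal protein (9.32 and 3.32 CPM, 1.48, 1.11 to 1.88), PAN3, a subunit of a poly(A) nuclease (5.81 and 1.72 CPM, 1.74, 1.24 to 2.30), and SMG1, a kinase of nonsense-mediated decay (21.1 and 9.95 CPM, 1.08, 0.85 to 1.31). SMG1 has near-identical copies in the genome, so its counts are uncertain. The median over the 65 was 0.09. Of the 12 measured long records of these genes, those of DCP1A and SMG1 were higher and none was lower, and of 7 long noncoding RNA records 1 was higher. The poly(A) cleavage subunit CPSF1 stood at 421 and 610.2 CPM (-0.54, -0.57 to -0.50) and the decay factor KHSRP at 699.5 and 815 CPM (-0.22, -0.25 to -0.19).

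None of the 6 most abundant long exons, by reads per kb, was called higher or lower in level, and SALL2, given above, was the 1 called below the rest of its gene. SCD, the stearoyl-CoA desaturase, had the most reads, 83116 and 109540 in 4098 bases, a log2 fold of -0.47 (-0.49 to -0.46) with its rest at -0.63. NPTXR, a neuronal pentraxin receptor, had 34022 and 34849 reads (-0.11, -0.14 to -0.08), the homeobox gene ALX4 24038 and 23351 (-0.03, -0.07 to 0.00), the cytolinker PLEC 34034 and 36474 (-0.18, -0.21 to -0.15), and the ribosomal protein gene RPL28 17078 and 23299 (-0.52, -0.56 to -0.48). The departure was 0.15 for SCD, 0.16 for NPTXR, 0.14 for ALX4, 0.10 for RPL28 and 0.01 for the mostly coding exon of PLEC, against -0.94 for SALL2. For RPL28 the rest had 59189 and 86622 reads, of which 19934 and 27426 lay in 3 records that overlap the long one.

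Apart from AHNAK, the longest records had few reads for their length. KCNQ1OT1, the imprinted antisense RNA of the KCNQ1 locus, spans 59461 bases and had 33 and 42 reads (-0.41, -1.45 to 0.58), in a record that overlaps another gene. The pseudogene ANKRD20A9P had 271 and 174 reads over 37567 bases (0.56, 0.16 to 0.97), and LOC100131257 had 93 and 50 over 21017 (0.81, 0.09 to 1.58). AAK1, a kinase of clathrin adaptors, had 610 and 189 reads over the 17969 bases of its 3′ end record (1.61, 1.28 to 1.96) against 325 and 211 in its rest (0.55). The nuclear noncoding RNA MALAT1, chosen after its values were seen, had 627 and 302 reads in its only record (0.98, 0.69 to 1.27).

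A relative of the targeted gene had a long last exon with a departure. RUNX2, the RUNX factor of bone, also chosen after its values were seen, had 76 and 18 reads in 4256 bases (1.94, 0.93 to 3.24) against 58 and 61 in its rest (-0.15, -0.93 to 0.63). The long record of RUNX1 had 7 and 2 reads and gave no fold under the rule.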

How the data were processed

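The authors deposited, per library, a gene table and an exon table; per the file headers these hold counts and RPKM values. The submitters' processing notes name CASAVA 1.9, TopHat2 2.0.6 and HTSeq and the build hg19; the role of each, the annotation, any filters and the strand setting were not stated in those sources. All deposited gene counts are even, so they were halved to pairs; 46 repeated gene rows were dropped, leaving 23352 genes. Exon counts were divided by 2 for folds and intervals. Of these counts 36.4% were odd in the 813 library and 35.5% in the NT library, so both reads of a pair need not fall in 1 record. Where they do not, the division makes intervals too wide and calls rarer. The background of all records was not run with undivided reads. TMM factors (edgeR 4.0.16, R 4.3.3) were 1.05 (813) and 0.954 (NT). Log2 folds used a prior of 0.5 pairs, with exact 95% Clopper-Pearson conditional binomial intervals (scipy 1.17.1, numpy 2.4.6, pandas 2.3.3, Python 3.11.15), tested on simulated counts. The authors' RPKM, which divides counts by length and library reads, served as an alternative only. The median half-width of the interval of a long record's log2 fold was 0.39. PCR copies are not independent molecules, so intervals cover counting error only.

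Strand, GC content, coding content and poly(A) signals came from GENCODE 29 on GRCh38, matched by symbol (1746 long records) or RefSeq synonym (125), with 70 unmatched, and by exon length within 10%; coordinates of records are hg19 and no build was converted. Records named were the 12 higher, 12 lower, 12 above and 12 below (10 existed) with intervals farthest from no difference or from the rest, 6 longest, 6 most abundant, up to 4 per gene list, and 3 on each side of the length limit. Members and lists were chosen with earlier results of these data known. One record named by the rule is not reported here. Alternatives were library totals, median-of-ratios factors, undivided reads, read minimums, length limits, overlap filters, priors, RPKM, call rules and a narrower rest.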

Additional observations from a re-analysis of the deposited data

How the results depend on the processing

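Each result has 1 library per group, so a difference between cultures cannot be told from one between hairpins. No paired analysis was possible because each group holds 1 library. The median log2 fold and departure of long records kept their sign under every alternative run. For departure this was fixed in advance under library totals and median-of-ratios factors, because scaling cancels in it. Lower records numbered 17 with plain library totals, 18 with the authors' RPKM and 17 with a minimum of 200 reads, against 29. With 5000 bases as the limit, 145 were higher and 10 lower; with 3000 bases, 394 and 63, with 122 above and 17 below the rest. With a 1.5-fold rule 458 were higher and 69 lower. With undivided reads 115 were above the rest and 32 below, against 77 and 10. Higher records numbered 315 with plain library totals and 312 with the authors' RPKM, against 252. With a 2-fold rule 39 were above and 5 below, and against only the next upstream record, measured for 603 records, 28 and 2. The cause was not tested; the length limits and call rules change the numbers by construction. Of the records named, RAB3B, SORT1, NR2C2 and SAMD4A lost the call above the rest at 2-fold. SALL2, EXOC5, N4BP1, TNPO1 and TCF4 lost the call below it at 2-fold. CUX1 lost its level call with median-of-ratios factors, falling just short of 2-fold. Of records with under 200 reads 31 of 396 were called higher, against 130 of 477 at 200 to under 1000 and 91 of 526 at 1000 or more; the part of depth was not tested. A rest without overlapping records of the same gene, and 1 record per locus, were chosen after seeing the data, and moved no count by over 1.5 times.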
